A study of Rattus with 9 samples.

Results

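Acid-sensing ion channel (ASIC) genes were examined in rat thoracic dorsal root ganglia, the clusters of sensory neuron cell bodies that receive afferents from the chest. The members are Asic1, Asic2 and Asic3, and they make up 3 of the 17378 genes in the deposited count table. They were set by gene symbol and not by a cut on measured values, though with earlier results of these data known. Ganglia came from SD rats 8 weeks after coronary ligation, which causes myocardial infarction (MI, n = 5), or after sham surgery (n = 4), and poly-A RNA was sequenced. The groups differ only in the operation, as far as the labels say, and the MI libraries carry the name CHF in the deposited tables. Each library is a separate rat in the labels, so the p-values below reflect the spread between animals.

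ASICs are proton-gated sodium channels of the degenerin and epithelial sodium channel family, and a working channel is a trimer of like or unlike subunits. In sensory neurons they open when extracellular pH falls, as it does in ischaemic muscle, and in the rat ASIC3 is the subunit best known for the acid-evoked currents of cardiac afferents. ASIC1 forms channels that open on moderate acidification, whereas ASIC2 is less sensitive to protons by itself and alters the properties of mixed channels. Whole ganglia were used, which contain neurons that serve skin and skeletal muscle as well as the heart, together with glia and vessels, so the values are averages over all of them.

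Total gene counts per library lay between 5656582 and 6861355, and RNA integrity numbers between 8 and 8.5. No pair of libraries agreed within sampling noise: the closest pair, Sham 3 and Sham 4, had a chi-square of 2.82 per gene where sampling alone gives about 1. Sensory neuron markers were abundant in each library. The summed level of 9 of them (Rbfox3, Tubb3, Prph, Avil, Isl1, Scn9a, Scn10a, Snap25 and Uchl1) was 10533 to 11753 CPM (counts scaled to library depth) in MI and 10719 to 11292 CPM in sham ganglia.

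By deposited RPKM, Asic3 had the highest level of the 3 subunits, followed by Asic1 and, far lower, Asic2; the order of Asic3 and Asic1 depends on the gene model lengths. Levels are given in RPKM, read counts divided by gene model length and by the total reads of the library, as the authors deposited them. Asic3, the subunit of sustained acid-evoked currents, stood at 41.4, 46.4, 46.3 and 44.9 RPKM in Sham 1 to Sham 4. In MI 1 to MI 5 it stood at 40.8, 45.9, 47.6, 49.7 and 48.7 RPKM. The groups overlapped, with the lowest value in MI 1 and the highest in MI 4.

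Asic1, which encodes the subunit of channels for moderate acidification, stood at 27.2, 25.9, 30.3 and 28.1 RPKM in Sham 1 to Sham 4. Its levels in MI 1 to MI 5 were 26.4, 25.9, 25.0, 29.9 and 31.4 RPKM. Here MI 4 and MI 5 lay with Sham 3 at the upper end, and the other 3 MI rats lay within or just below the sham range. Asic2, the modulatory subunit, stood at 3.58, 3.46, 3.89 and 4.17 RPKM in Sham 1 to Sham 4. In MI 1 to MI 5 it stood at 3.23, 4.37, 3.50, 3.95 and 3.42 RPKM, with both the lowest and the highest library in the MI group.

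**Figure D1:**
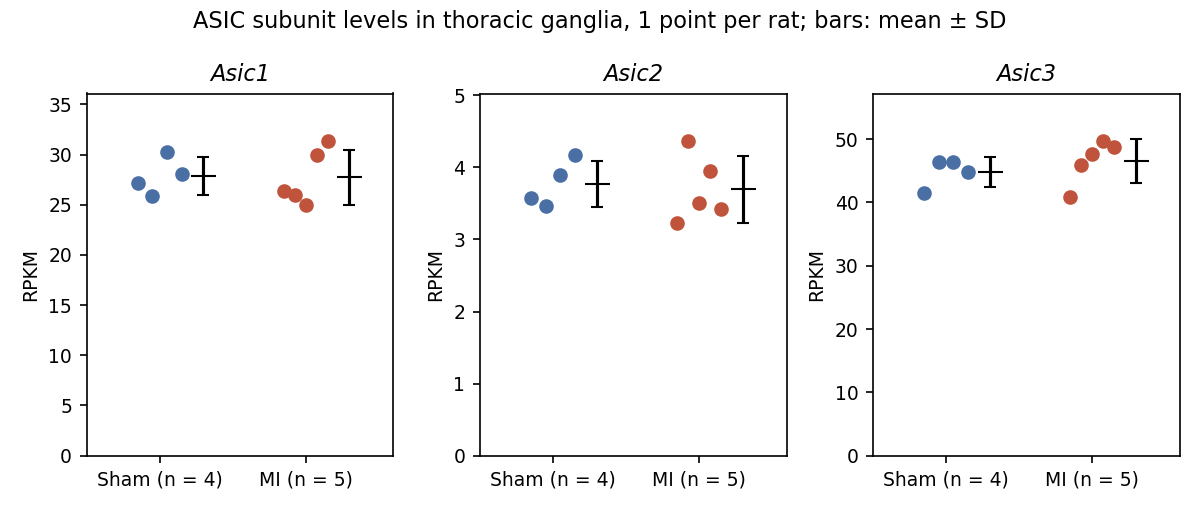
RPKM of Asic1, Asic2 and Asic3 in each rat, by operation, with 1 point per library and the mean ± SD of each group as a bar. The vertical axes start at 0 and differ between panels; the Sham and MI points overlap for all 3 genes.

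Over all 9 libraries the level was 45.7 ± 3.02 RPKM (SD, n = 9) for Asic3, 27.8 ± 2.27 RPKM (SD, n = 9) for Asic1 and 3.73 ± 0.382 RPKM (SD, n = 9) for Asic2. The order Asic3, Asic1, Asic2 held in all 9 libraries, and the ranges of neighbours in that order did not overlap. Asic3 exceeded Asic1 1.65-fold (SD 0.138, range 1.52 to 1.90) and Asic2 12.4-fold (SD 1.28, range 10.5 to 14.2). Among the 17378 genes listed, 1257 had a higher mean RPKM than Asic3, 2124 a higher one than Asic1 and 8404 a higher one than Asic2.

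The order of the top pair rests on the gene models. The deposited counts and RPKM imply model lengths of 1602 bases for Asic3, 3771 bases for Asic1 and 3196 bases for Asic2. In raw counts Asic1, at 960 to 1331 per library, exceeded Asic3, at 621 to 878, in all 9 libraries, and Asic2 had 106 to 139. Read counts alone thus put Asic1 first, and division by length puts Asic3 first. Whether the 1602-base Asic3 model covers the whole transcript or its coding part alone was not tested, and the order of Asic3 and Asic1 per length holds only for the models used. Splice forms, such as ASIC1a and ASIC1b, are summed in one gene value and were not separated.

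Sham and MI ganglia were then compared for each subunit, which asks whether infarction left a lasting difference in the RNA of these channels. None of the 3 subunits passed the threshold of an adjusted p of 0.05, which 0.0171% of the 11711 genes tested passed, and none had an unadjusted p under 0.05, which 4.64% of the tested genes had. Adjusted p-values below are from an edgeR likelihood-ratio test with Benjamini-Hochberg adjustment over all tested genes. Levels are CPM with library sizes adjusted by the TMM method, and the SE is that of the group difference in log2 CPM.

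MI ganglia held 123 CPM of Asic3 (SD 9.60, n = 5), and sham ganglia 119 CPM (SD 5.58, n = 4). The fitted log2 fold change was 0.05 (SE 0.07, 1.04-fold, edgeR adjusted p = 0.9996), and 3 of 5 MI rats lay above the sham median. For Asic1 the MI mean was 173 CPM (SD 17.6, n = 5) and the sham mean 174 CPM (SD 11.9, n = 4). Its log2 fold change of -0.01 (SE 0.09, 0.993-fold, edgeR adjusted p = 0.9996) came with 2 of 5 MI rats above the sham median. For Asic2 the MI mean was 19.5 CPM (SD 2.36, n = 5) and the sham mean 19.98 CPM (SD 1.74, n = 4). Its log2 fold change of -0.04 (SE 0.10, 0.973-fold, edgeR adjusted p = 0.9996) likewise came with 2 of 5 MI rats above the sham median.

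The unadjusted likelihood-ratio p-values from edgeR were 0.452 for Asic3, 0.896 for Asic1 and 0.738 for Asic2. With the edgeR quasi-likelihood test the adjusted p-values were 0.958, 0.998 and 0.986. For Asic3, the authors' deposited table gives a fold of 1.03 with p = 0.494. The rows of it used here reach no higher than an authors' p of 0.712 and hold neither of the other subunits.

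The 95% interval from limma-voom ran from 0.943-fold to 1.13-fold for Asic3, from 0.890-fold to 1.10-fold for Asic1 and from 0.828-fold to 1.13-fold for Asic2. Changes of a size beyond these bounds lie outside the intervals, and smaller ones were not resolved with 5 rats against 4. Of all tested genes, 59.8% had a larger absolute log2 fold change than Asic3, 68.5% a larger one than Asic2 and 91.4% a larger one than Asic1. The MI and sham libraries did not overlap for 1.74% of tested genes, and they overlapped for all 3 subunits.

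The direction for Asic1 and Asic2 was not stable. Over the 9 fits that left out 1 library, log2 ranged from -0.06 to 0.03 for Asic1 and from -0.10 to 0.01 for Asic2, whereas for Asic3 it ranged from 0.02 to 0.09. Asic1 turned positive without Sham 3 (log2 0.03), MI 1 (log2 0.01), MI 2 (log2 0.02) or MI 3 (log2 0.02), and Asic2 without Sham 4 (log2 0.01) or MI 1 (log2 0.004). In bulk ganglia, fewer cells of a type and less RNA per cell cannot be told apart. The mean log2 CPM of the 9 sensory neuron markers averaged 9.24 after MI (SD 0.08, n = 5) and 9.28 after sham surgery (SD 0.05, n = 4), a difference of -0.03 (two-sided exact permutation p = 0.492). Set against those markers within each library, Asic3 differed by log2 0.08 (exact permutation p = 0.341), Asic1 by 0.02 (exact permutation p = 0.841) and Asic2 by -0.01 (exact permutation p = 0.952).

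Subunit proportions were compared because ASIC trimers can mix subunits. The shares are of RNA over the whole ganglion, so which trimers form in a cell was not tested. Asic3 made up 59.2% ± 1.81 (SD, n = 9) of the summed RPKM of the 3 genes, Asic1 36.0% ± 1.85 (SD, n = 9) and Asic2 4.83% ± 0.488 (SD, n = 9). The Asic3 share in Sham 1 to Sham 4 was 57.4%, 61.3%, 57.5% and 58.2%. In MI 1 to MI 5 it was 57.9%, 60.2%, 62.5%, 59.5% and 58.3%. Sham 2, MI 2 and MI 3 had Asic3 shares over 60% and the lowest Asic1 shares, at 34.1%, 34.0% and 32.9%. These 3 libraries come from both groups. Without division by length the lead turned over: of the summed CPM, Asic1 made up 55.1% (SD 2.00), Asic3 38.6% (SD 1.81) and Asic2 6.28% (SD 0.646) over the same libraries.

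Shares were compared by a two-sided exact permutation test over every assignment of rats to groups, whose smallest possible p is 0.00794. For Asic3 the MI share averaged 59.7% (SD 1.83, n = 5) and the sham share 58.6% (SD 1.84, n = 4; exact p = 0.413). For Asic1 the MI share averaged 35.6% (SD 2.08, n = 5) and the sham share 36.5% (SD 1.66, n = 4; exact p = 0.421). For Asic2 the MI share averaged 4.75% (SD 0.603, n = 5) and the sham share 4.94% (SD 0.349, n = 4; exact p = 0.587). The highest Asic2 share, 5.74%, and the lowest, 4.10%, were both in MI rats, MI 2 and MI 5.

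Ratios of a pair of subunits within a library do not depend on library scaling, but their level depends on the model lengths. The log2 ratio of Asic3 to Asic1 averaged 0.75 after MI (SD 0.13, n = 5) and 0.69 after sham surgery (SD 0.11, n = 4; exact p = 0.437). That of Asic3 to Asic2 averaged 3.66 after MI (SD 0.17, n = 5) and 3.57 after sham surgery (SD 0.13, n = 4; exact p = 0.405). That of Asic2 to Asic1 averaged -2.91 after MI (SD 0.23, n = 5) and -2.88 after sham surgery (SD 0.09, n = 4; exact p = 0.833). In CPM the log2 ratio of Asic3 to Asic1 was below 0, at -0.49 after MI and -0.55 after sham surgery. Each difference between the groups was smaller than the spread between rats, and after Benjamini-Hochberg adjustment over 7 proportion results the smallest exact p was 0.704. The summed level of the 3 genes was 70.4 to 83.6 RPKM in MI and 72.2 to 80.5 RPKM in sham ganglia.

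**Figure D2:**
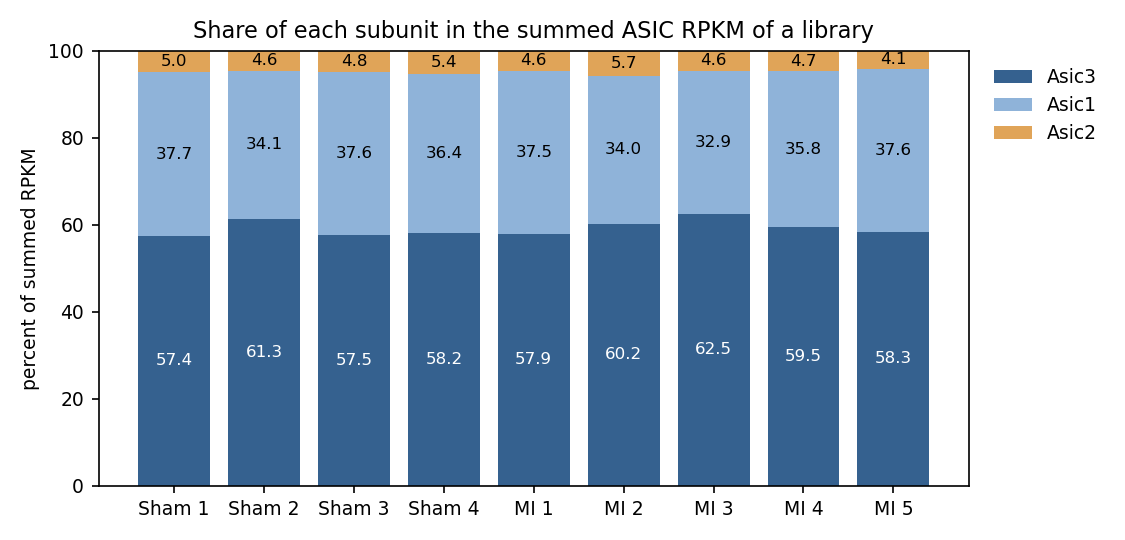
Stacked bars of the percent of summed ASIC RPKM from Asic3 (bottom), Asic1 (middle) and Asic2 (top) in each of the 9 libraries, with the percent printed in each segment. Asic3 takes 57.4% to 62.5% of the sum and Asic2 4.10% to 5.74%, with overlap of Sham and MI; without division by model length Asic1 leads, at 55.1% against 38.6% for Asic3.

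The spread between rats is described for each subunit, and differences in spread between subunits were not tested. The SD of log2 CPM within groups was 0.13 for Asic1, above that of 87.6% of the 1101 genes within 0.5 log2 CPM of its level, whose median was 0.07. For Asic3 it was 0.10, above 68.1% of 1502 genes of like level, with a median of 0.08. For Asic2 it was 0.15, close to the median of 0.16 over 2109 genes of like level. Counting error alone was 2.74% to 3.23% for Asic1, 3.38% to 4.01% for Asic3 and 8.48% to 9.71% for Asic2, while the coefficients of variation of CPM over the 9 rats were 8.33%, 6.55% and 10.1%. The spread of Asic2 was therefore close to what its read number gives by counting.

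No pair of subunits was shown to rise and fall together over the 9 rats. Pearson's r of log2 CPM was 0.41 for Asic1 with Asic3 (rho 0.33, exact permutation p = 0.267 and 0.385), 0.27 for Asic2 with Asic3 (rho 0.07, exact permutation p = 0.483 and 0.880) and 0.13 for Asic1 with Asic2 (rho -0.03, exact permutation p = 0.740 and 0.948). Adjusted over the 3 pairs, the smallest exact p was 0.725 for r and 0.948 for rho. Without the 2 libraries farthest from the median of the first gene, r was 0.25, 0.52 and 0.37.

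In a comparison added after values had been seen, Asic1 followed the markers of large myelinated afferents from rat to rat. These markers were Nefh, the heavy neurofilament of large axons, Pvalb, a calcium buffer of proprioceptors, the neurotrophin receptor genes Ntrk2 and Ntrk3, and Spp1. Their mean log2 CPM lay between 8.57, in MI 3, and 8.81, in MI 5, the libraries that also held the lowest and the highest Asic1. Pearson's r with Asic1 was 0.87 (exact permutation p = 5.37e-04) and Spearman's rho 0.93 (exact permutation p = 7.50e-04). After adjustment over the 30 relations of 3 subunits with 10 marker lists, the p-values were 0.0161 and 0.0225 by the exact permutation test. With MI 5 and MI 3 left out r was 0.80, and with both genes and markers centred on their group means it was 0.87. Of 11706 tested genes, 0.111% had an r with these markers at least as high, Asic1 included.

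The single markers tracked Asic1 less closely than their mean, with r = 0.70 for Nefh, 0.60 for Pvalb, 0.58 for Spp1, 0.38 for Ntrk3 and 0.03 for Ntrk2 (n = 9 rats each, as a description). For the other 29 relations r lay between -0.44 and 0.48, with a smallest unadjusted exact p of 0.193. Among them, Asic3 had r = 0.21 and Asic2 r = 0.04 with the large afferent markers. With the general sensory neuron markers, r was -0.06 for Asic1, -0.06 for Asic2 and -0.004 for Asic3. Of the 5 large afferent markers, 3 were lower and 2 higher in MI, none past the threshold.

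**Figure D3:**
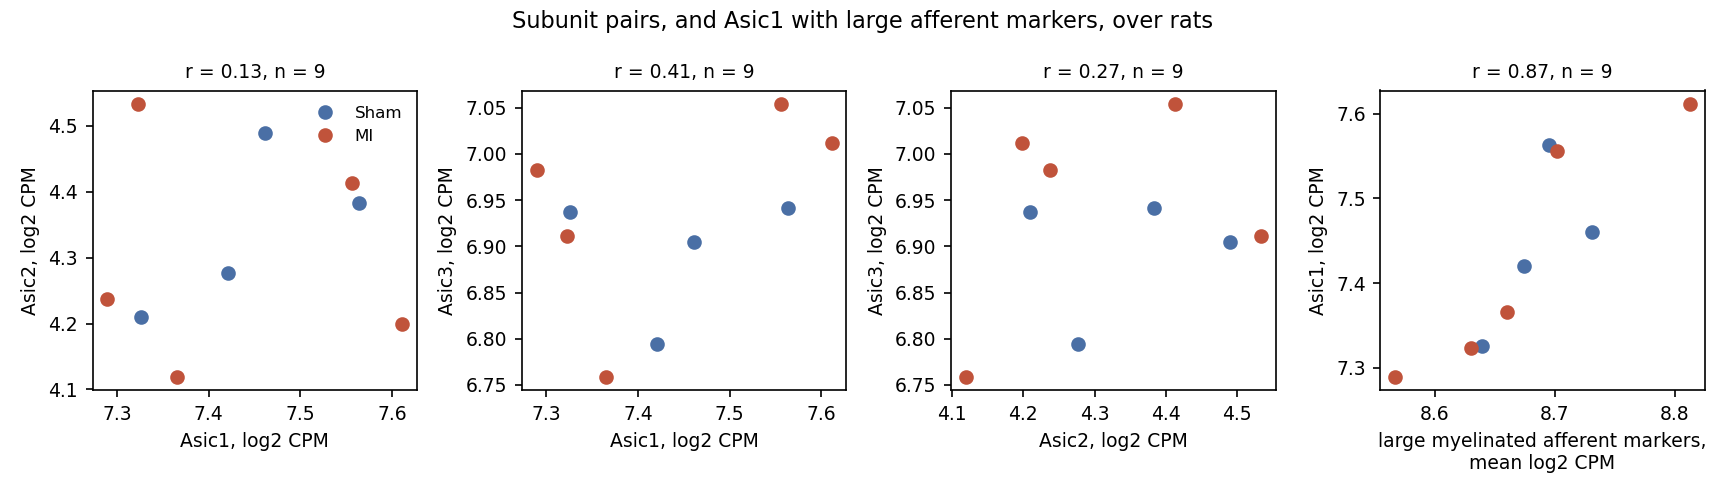
Scatter plots over the 9 rats of log2 CPM for each pair of subunits (first 3 panels) and of Asic1 against the mean log2 CPM of 5 large myelinated afferent markers (last panel), coloured by operation. Asic1 and the large afferent markers have r = 0.87 over the 9 rats, while the subunit pairs scatter with r between 0.13 and 0.41.

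The genes most like each subunit over the 9 rats were found by Pearson's r among 11217 tested genes, as a description. For Asic1 they were Sirt2, a protein deacetylase gene (r = 0.95, rho 0.98), Odf2, a gene of centriole appendages (r = 0.92), and the zinc finger gene Zkscan5 (r = 0.92). For Asic3 they were Pgrmc2, which encodes a haem-binding membrane protein (r = 0.95), Lrrc27 (r = 0.92) and Hexim2, an inhibitor of a transcription elongation kinase (r = 0.91). For Asic2 they were Emc7, of a membrane protein insertion complex (r = 0.89), Slc25a5, a mitochondrial ADP and ATP carrier (r = 0.89), and Ptges2, a prostaglandin synthase gene (r = 0.88). The lists share no gene. Without the 2 libraries farthest from the subunit's median, r stayed at 0.77 or above for each of these 9 genes. That is no independent check, because the genes were picked for high r in the same libraries. How high r would reach by chance among 11217 genes over 9 rats was not tested.

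The rest of the family was close to absent. Asic4 had 14 reads and Asic5, a bile acid-sensitive relative, 2 reads over all 9 libraries, and neither passed the filter on low counts. Of the epithelial sodium channel subunits, Scnn1a had 82 reads and log2 0.06 (SE 0.25, edgeR adjusted p = 0.9996; -0.14 without Sham 3, -0.04 without Sham 4, and 0.15 without MI 1), while Scnn1b with 8 reads and Scnn1g with 18 reads were not tested. The summed level of these 5 genes was 2.14 to 3.23 CPM in MI and 1.11 to 2.69 CPM in sham ganglia.

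Among 12 genes of ASIC binding partners and regulators, 10 were tested and none passed in either direction, with 5 higher and 5 lower in MI and a median log2 of -0.02, against 0.002 over all tested genes. S100a10, which encodes an annexin partner that aids the surface delivery of ASIC1, was the most abundant at 786 ± 42.1 RPKM (SD, n = 9). Stoml1, a stomatin relative that inhibits ASIC1 channels, stood at 26.3 RPKM and had log2 0.003 (SE 0.05), and Stoml3, of the same family, had 4 reads in all. Pick1, a scaffold for ASIC1 and ASIC2, stood at 7.25 RPKM and had log2 -0.09 (SE 0.09). The 3 members with the smallest p, none past the threshold, were Slc9a3r1, a PDZ scaffold that binds ASIC3 (log2 -0.17, SE 0.08, edgeR adjusted p = 0.9996), the protein kinase gene Prkca (log2 -0.14, SE 0.07) and Stom, which encodes stomatin, an inhibitor of ASIC3 (log2 0.18, SE 0.19). The Stom value was 0.06 without MI 5 and 0.28 without MI 4.

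Of 10 other proton-sensing channels and receptors 8 were tested and none passed, with 2 higher and 6 lower in MI and a median log2 of -0.08. Of all tested genes, 49.2% had a log2 fold change below 0. P2rx3, an ATP-gated channel of nociceptors whose gating protons modulate, stood at 77.3 ± 6.08 RPKM (SD, n = 9) and had log2 -0.11 (SE 0.07, edgeR adjusted p = 0.9996). Trpv1, the capsaicin and acid receptor, stood at 23.9 ± 2.20 RPKM (SD, n = 9), below Asic3 and near Asic1, and had log2 -0.11 (SE 0.08), or -0.17 without MI 1. Otop1, a proton channel gene with 101 reads in all, had log2 -0.33 (SE 0.17), and these 3 had the smallest p of the list. The acid-inhibited potassium channel genes Kcnk3, at 1.12 RPKM, and Kcnk9, with 34 reads in all, were low.

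Genes of proton, bicarbonate and lactate handling take part in acid balance, and the pH that ASICs meet was not measured. Of 17 such genes 15 were tested and none passed, with 5 higher and 10 lower in MI and a median log2 of -0.02. The lactate dehydrogenase genes Ldhb and Ldha were abundant at 233 and 155 RPKM, with log2 0.07 (SE 0.05) and -0.01 (SE 0.05). The lactate transporter gene Slc16a1 stood at 29.9 RPKM, with log2 0.07 (SE 0.06). The members with the smallest p, none past the threshold, were Slc4a4, a sodium bicarbonate cotransporter gene (log2 -0.22, SE 0.12, edgeR adjusted p = 0.9996), and the carbonic anhydrase genes Car4 (log2 -1.67, SE 0.90) and Car14 (log2 -0.71, SE 0.47). Car4 had 72 reads in all and Car14 108. The Car14 value was -0.41 without Sham 1 and -1.16 without MI 5.

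Of 6 genes for peptides that modulate ASICs and their receptors, only Oprk1, the kappa opioid receptor, was tested, with log2 -0.19 (SE 0.31, edgeR adjusted p = 0.9996). Its value lay between -0.07, without MI 4, and -0.40, without MI 1, and moved by more than 1.5 times on leaving out any library but Sham 1 or Sham 4. The neuropeptide FF precursor Npff had 61 reads and the dynorphin precursor Pdyn 30.

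**Figure D4:**
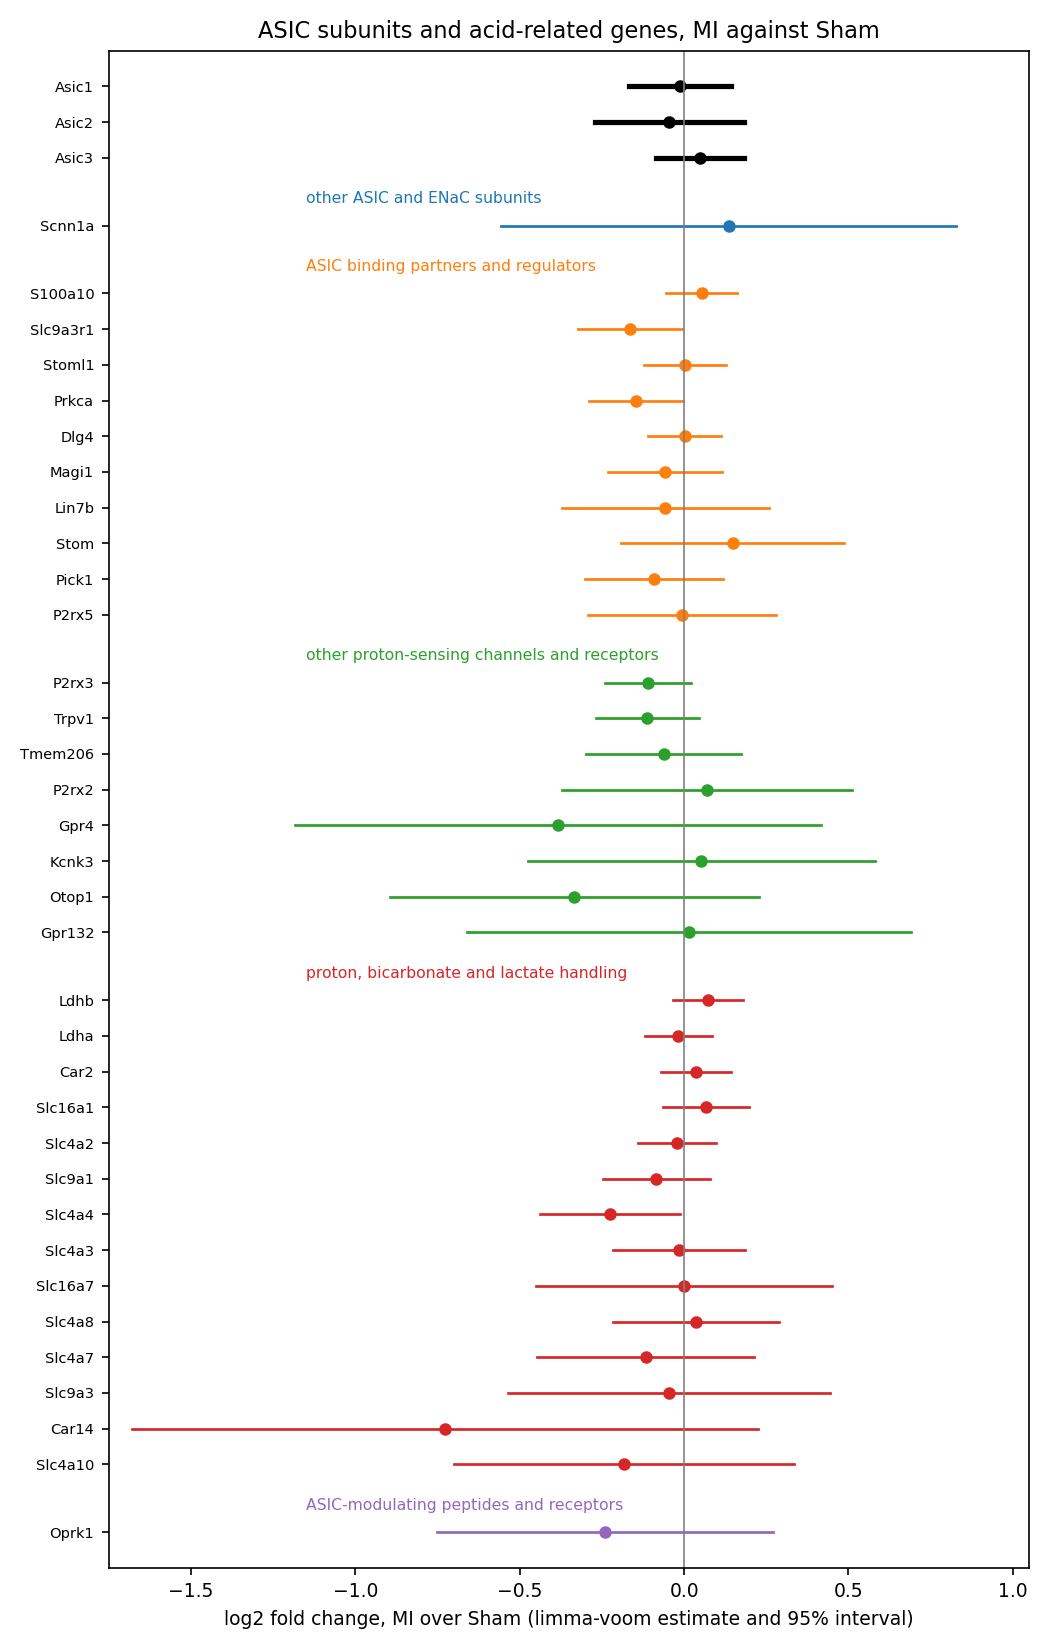
Log2 fold change of MI over Sham from limma-voom, with the 95% interval not adjusted for the number of genes, for the 3 ASIC subunits (black) and the tested genes of the 5 acid-related lists (coloured by list, ordered by RPKM; Car4 is left out because its interval reaches -4.49). The intervals of the 3 subunits include 0.

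On the RPKM scale, 5 of the 50 acid-related genes in the table lay above Asic3: S100a10, Ldhb, Ldha, P2rx3 and Car2. Asic1 had 7 of them above it and Asic2 21. Asic2 lay between P2rx5, an ATP-gated channel reported to act with ASIC3, at 5.61 RPKM, and Slc16a7, a lactate and pyruvate transporter gene, at 2.13 RPKM.

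**Figure D5:**
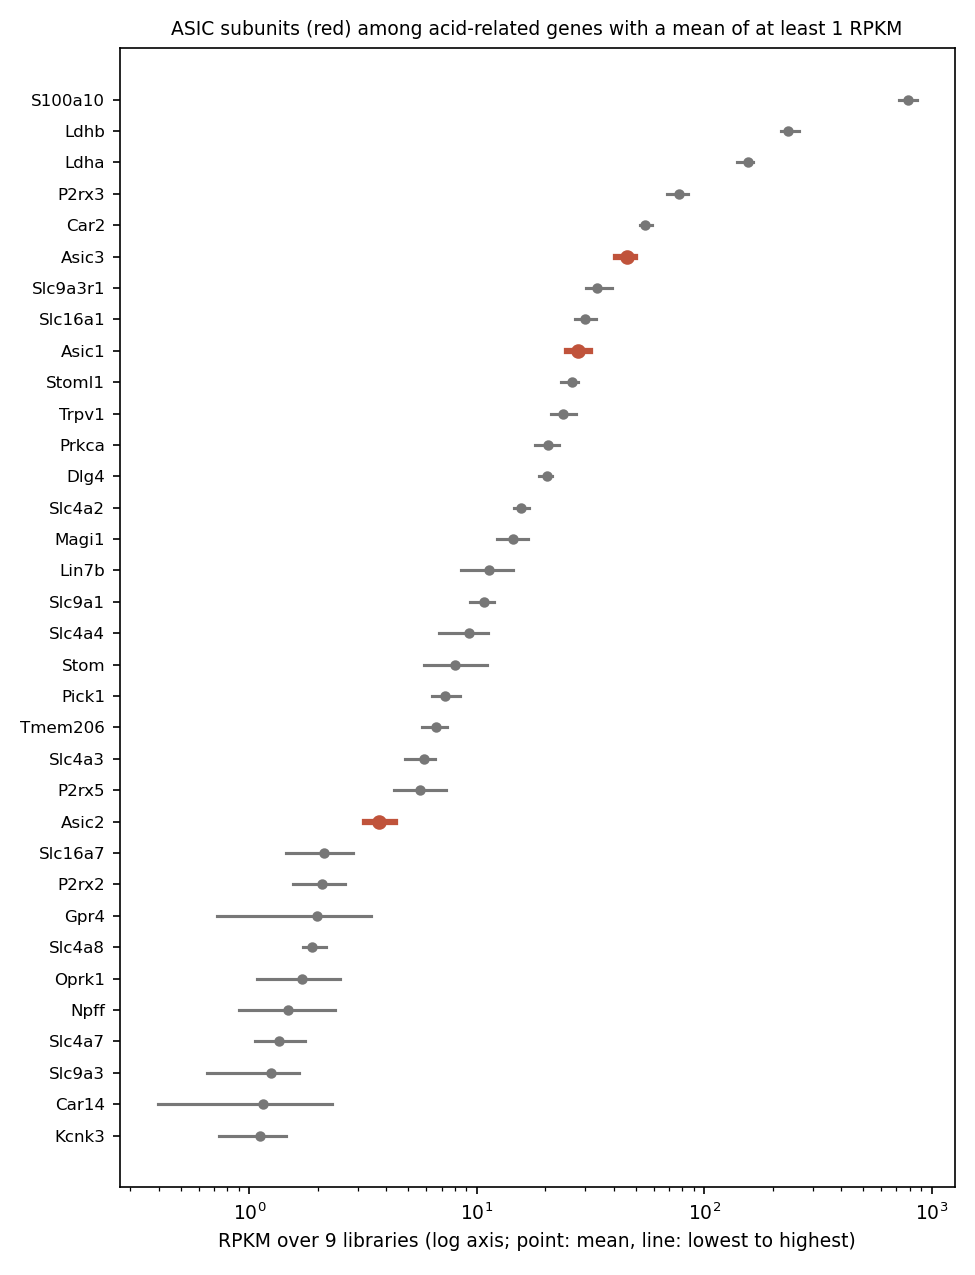
Mean RPKM over 9 libraries (points, log axis) with the lowest and highest library (lines) for the ASIC subunits, in red, and acid-related genes with a mean of at least 1 RPKM, in grey. Asic3 sits at 45.7 RPKM between Car2 and Slc9a3r1, Asic1 at 27.8 RPKM beside Stoml1 and Slc16a1, and Asic2 at 3.73 RPKM. The places depend on the model lengths.

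Markers of cell types in the ganglion were compared in the same test, and none passed. The 4 peptidergic and the 4 non-peptidergic nociceptor markers were each lower in MI, with median log2 of -0.08 and -0.11, and so were the 4 Schwann cell markers, with -0.14. Of all tested genes, 49.2% were lower in MI. Trpv1 and P2rx3, of the nociceptor lists, were also counted among the proton-sensing genes above. For satellite glia the median log2 was -0.04 over 4 markers, for macrophages 0.24 over 4, for large myelinated afferents -0.02 over 5 and for sensory neurons 0.01 over 9. In the last 2 lists, 3 large afferent markers were lower and 2 higher, and 4 sensory neuron markers lower and 5 higher. Their smallest p came from Ntrk2 (log2 -0.15, SE 0.06) and Rbfox3 (log2 -0.21, SE 0.11), with edgeR adjusted p = 0.892 and 0.9996. The 4 endothelial and vessel wall markers were higher in MI with a median of 0.48, but by unlike amounts. Log2 was 0.81 for Acta2 and 0.65 for Myh11 (edgeR adjusted p = 0.442 and 0.0635), against 0.30 for Pecam1 and 0.09 for Cdh5. The summed level of the 4 markers was 147 to 236 CPM in MI and 111 to 150 CPM in sham ganglia. Summed skeletal muscle markers ranged from 8.21 to 60.4 CPM and spinal cord markers from 12.98 to 53.1 CPM over the 9 libraries, and the oligodendrocyte gene Olig2 had no reads. The part of these markers in the ASIC values was not tested beyond the correlations given above.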

How the data were processed

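Per the series' design text, bcl2fastq 2.16.0.10 demultiplexed the 75-base reads, cutadapt trimmed them, STAR 2.3.0 aligned them to rn6, and genes were counted against Partek 6.6 annotation. The deposited counts are whole reads per gene that the authors rounded from deposited estimated counts (largest difference 0.5). The deposited RPKM values, by the authors, match counts divided by model length and by the total reads of the library. The authors' table gives TMM-scaled CPM, a linear fold and p-values, per the file headers; 8000 of its rows were used. Deposited sheets give total reads, the percent of reads in exons and the RNA integrity number, a score.

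The whole count table was fitted with edgeR 4.0.16 (R 4.3.3): filterByExpr left 11711 genes, and MI was compared with sham by a generalized linear model with TMM scaling, tagwise dispersion and a likelihood-ratio test, the test the design text names. The edgeR quasi-likelihood test, DESeq2 1.42.0, limma-voom (limma 3.58.1), other scalings, filters and units, a replicate block and fits without each library were alternatives. Log2 CPM used a prior count of 2. Exact tests ran in Python 3.11.15. The edgeR and limma-voom fits were checked on simulated counts, and the permutation tests on made-up values with a known answer.

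Named genes are the members, the 3 genes of each list with the smallest p, and the 3 genes most like each member (mean log2 CPM of at least 1, no placeholder symbol); other genes of the lists are named for their level or known role. The members and lists were chosen with earlier results of these data known, and the correlations with marker lists were added after seeing values. Scnn1d and Pou4f1 were not analysed here. Some acid-related genes are not reported here and are left out of the acid-related list counts. Whether counting used strand is not stated by any source used here; overlapping genes may share reads. Counting error is the Poisson error of the count as a percent of it. Genes of the cell type marker lists are mainly summarised by list, although the rule would also name 3 of each.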

Additional observations from a re-analysis of the deposited data

Results flagged for a closer look

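Dixon's gap test, which flags about 1 in 20 groups by chance, set apart no library for any level, share or ratio of the 3 subunits. Over 42 groups examined, named list genes included, 1 value stood apart, where chance gives about 2.1. Car4, a carbonic anhydrase gene, stood at 2.64 CPM in MI 5 against 0 to 0.333 CPM in the other MI rats. MI 5 also held the highest Asic1 level, 195.2 CPM, which did not stand apart from MI 4 at 187.8 CPM.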

How the results depend on the processing

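No alternative brought a subunit, a share, a ratio or a pair correlation past its threshold. Over 22 alternative edgeR, DESeq2 and limma fits, log2 ranged from -0.059 to 0.029 for Asic1, from -0.10 to 0.011 for Asic2 and from 0.020 to 0.095 for Asic3; relative to sensory neuron markers Asic1 turned to 0.018. The 9 fits without 1 library are among these 22 fits and gave the same ranges to 2 digits, so they are no separate check. Leaving out 1 library also gave -0.11 to 0.045 for the log2 ratio of Asic2 to Asic1 and -0.10 to 0.42 for r of Asic2 with Asic3. It gave -0.14 to 0.15 for log2 of Scnn1a in the 6 such fits whose filter kept it. For r of Asic1 with large afferent markers it gave 0.82 to 0.91. The count of genes past the threshold, 2 higher and 0 lower in MI, was 0 and 0 by the quasi-likelihood test (602 genes at an unadjusted p under 0.05), by limma-voom (608 genes) and by limma on log2(RPKM + 0.1) or log2(RPKM + 1). It was 45 and 25 with 1 common dispersion, 4 and 0 with upper quartile factors, 4 and 2 with no filter, and 2 to 6 higher and 0 to 4 lower without 1 library; the cause was not tested. Replicate numbers did not pair the rats: correlations of same-numbered deviations were -0.132, -0.137, 0.0363 and 0.0916. With the replicate block the counts were 5 and 7, and log2 was -0.06 for Asic1, -0.01 for Asic2 and 0.03 for Asic3. MI 5 has no sham rat of its number, so in the block fit it adds nothing to the group difference. Car4, whose highest MI level was in MI 5, passed with the block (log2 -3.85) and with 1 common dispersion (log2 -1.61). Depth limits Asic2, Asic4 and Asic5.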

Other observations

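Model lengths came out as whole bases for 10089 genes with at least 20 counts in each library, and the Asic3 model, at 1602 bases, was longer than 27.1% of them, while the Asic1 model, at 3771 bases, was longer than 79.0%. The Asic3 and Asic1 lengths are multiples of 3, as are 35.6% of all these lengths.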
